A study of Mus musculus with 3 samples.

Results

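The SR genes are the family of serine- and arginine-rich splicing factors, and the 10 members described here are Srsf1, Srsf2, Srsf3, Srsf4, Srsf5, Srsf6, Srsf7, Srsf9, Srsf10 and Srsf11. They were taken by symbol from the 32285 genes listed for each library, and each symbol matched 1 identifier. All 10 members passed the filter on low values, which asked for 10 CPM or more in the mean of the 3 libraries and kept 7884 genes. A UMI, or unique molecular identifier, counts 1 captured RNA molecule, and CPM are the UMIs of a gene per 1000000 UMIs in the called cells of its library. The cells were E14 mouse embryonic stem cells of a 129/Ola background, cultured in serum with leukaemia inhibitory factor and profiled with droplet barcoding that reads the 3' end of polyadenylated RNA. The 3 groups were cells given 10 uM tubercidin for 3 h, cells given 10 uM tubercidin for 6 h, and control cells given DMSO, the solvent, for 6 h. No control of 3 h was measured, so in the 3 h comparison the drug and the difference in time cannot be told apart. Each group was 1 library, so no difference was tested, and a second culture could differ by more than the counting error. The intervals below are exact 95% intervals of counting error.

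SR proteins carry 1 or more RNA recognition motifs and a tail of repeated serine-arginine pairs. They bind exons and recruit the spliceosome, the machine that removes introns, and several of them also escort finished mRNA out of the nucleus. Kinases of the CLK and SRPK families phosphorylate the tail, and the proteins gather in nuclear speckles. Many SR genes limit their own output by splicing in a poison exon, which sends the transcript to nonsense-mediated decay. Tubercidin is an adenosine analogue that has been used to disperse nuclear speckles.

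The control library held 2031 called cells, the 3 h library 2365 and the 6 h library 2926, with 104892739, 29892000 and 24681924 UMIs in them. The median cell held 48452, 11877 and 8004.5 UMIs, so depth per cell moved with the treatment. Each pair of libraries shared 1 cell barcode. The 8 stem cell markers were all detected in every library, with a summed level of 4347, 5178 and 3785 CPM. The summed level of 6 primitive endoderm markers was 8.60, 6.69 and 10.8 CPM (Sox17 at 0 after 6 h), that of 6 trophoblast markers 35.1, 38.3 and 39.6 CPM (Hand1 at 0 after 6 h), and that of 6 fibroblast markers 0.963, 1.37 and 2.11 CPM (Lum at 0 in the control and after 6 h, Col3a1 after 3 h, Col1a2 after 6 h). Of 6 markers of 2-cell-like cells, 5 were at 0 in the control, 6 after 3 h and 2 after 6 h, where the summed level was 0.932 CPM.

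Within the family, transcripts of Srsf3 and Srsf11 took a larger share of all UMIs after tubercidin, though fewer UMIs per cell, those of Srsf7, Srsf9, Srsf10, Srsf4 and Srsf1 a smaller one, and those of Srsf2, Srsf5 and Srsf6 differed from the control by at most 1.12-fold. For Srsf10 after 3 h this direction turned under median-of-ratios scaling, which, like TMM scaling, replaces the library total by a factor taken from the typical gene. The family as a whole took 2565 CPM without the drug, 2783 CPM after 3 h and 2515 CPM after 6 h. Counted per cell, the family stood at 132 UMIs in the control, 35.2 after 3 h and 21.2 after 6 h, and by that measure every member was lower in both treated libraries. The number of reads sequenced was not used here, so a lower RNA content and a shallower library cannot be told apart in the counts per cell.

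**Figure D1:**
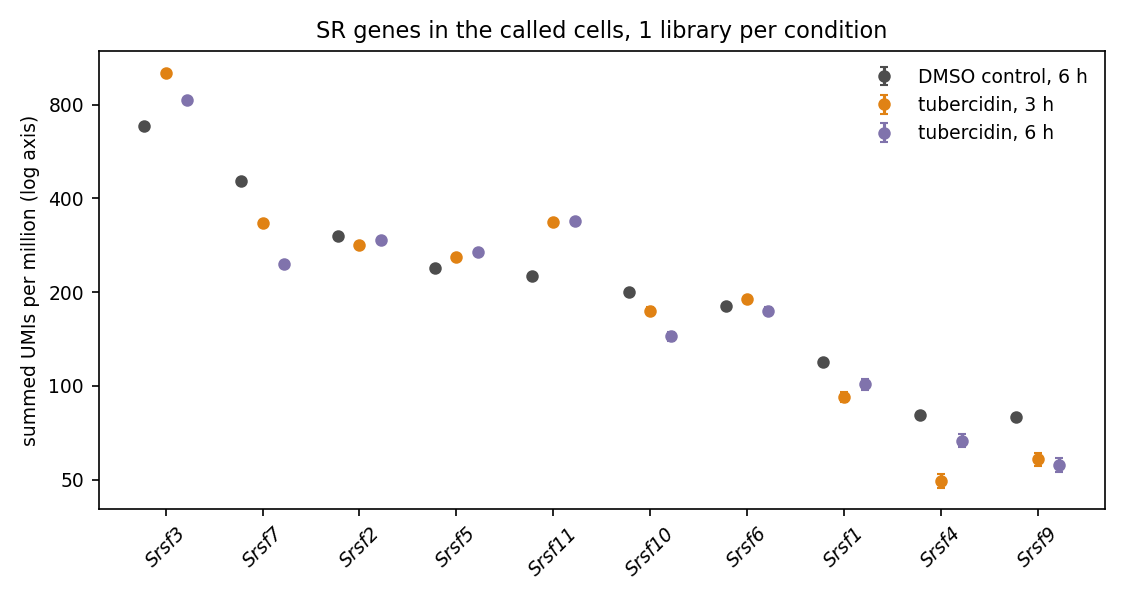
Level in CPM of the 10 SR genes, on a log axis, in the control (grey), 3 h (orange) and 6 h (purple) library, with exact 95% counting intervals where they exceed the symbol. Srsf3 lies highest in each library, and Srsf11 and Srsf7 change places: 226 against 454 CPM without the drug and 337 against 245 CPM after 6 h.

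Srsf3 and Srsf7 are close relatives that both act as adaptors for mRNA export, and Srsf7 differs by a zinc knuckle between its RNA recognition motif and its tail. Srsf3 (ENSMUSG00000071172, chr17:29032628-29043373, plus strand of mm10) was the most abundant member, at 684 CPM in the control (679 to 689), 1009 CPM after 3 h (998 to 1020) and 828 CPM after 6 h (817 to 839.8). Both treated libraries lay above the control, and the 3 h library was the highest. The log2 ratio of CPM + 1 against the control was 0.56 after 3 h and 0.28 after 6 h, with counting intervals of 0.54 to 0.58 and 0.25 to 0.30. Srsf7 (ENSMUSG00000024097, chr17:80200080-80207307, minus strand) stood at 454 CPM without the drug, 334 CPM after 3 h and 245 CPM after 6 h. It was lower after 3 h than in the control and lowest after 6 h. Its log2 ratios were -0.44 (-0.48 to -0.41) after 3 h and -0.89 (-0.93 to -0.85) after 6 h, a 1.85-fold difference after 6 h. The relatives therefore moved in opposite directions on the scale of CPM, and 96.0% of the tested genes had a lower 3 h ratio than Srsf3, while 6.48% had a lower 6 h ratio than Srsf7.

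The ratio of Srsf3 to Srsf7 UMIs does not depend on any factor applied to a whole library. It was 1.51 in the control (1.49 to 1.52), 3.02 after 3 h (2.95 to 3.09) and 3.38 after 6 h (3.28 to 3.47). This is a 2.01-fold change after 3 h and a 2.24-fold change after 6 h, and the 3 counting intervals did not overlap. The pair was chosen for its kinship after the values were seen.

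Srsf11 codes for an SR-related protein known to contact factors at both ends of the intron. Srsf11 (ENSMUSG00000055436, chr3:158010473-158036639, minus strand) stood at 226 CPM without the drug, 336 CPM after 3 h and 337 CPM after 6 h. On the scale of CPM the treated libraries were alike and both above the control. The log2 ratios were 0.57 (0.54 to 0.61) and 0.58 (0.54 to 0.61), or 1.49-fold at each time. Between 6 h and 3 h its log2 ratio was 0.01, with an interval of -0.04 to 0.05 that held 0. Over 10 alternatives other than UMIs per cell, its 3 h ratio ran from 0.55 to 0.81 and its 6 h ratio from 0.55 to 0.61. Between the times it ran from -0.22 to 0.03, so the likeness of the treated libraries depends on the processing. Its ratios exceeded those of 96.2% of the tested genes after 3 h and 92.8% after 6 h.

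The 250 bases upstream of the RefSeq start (GRCm38.p6) are shown for the members with the highest and the lowest 6 h ratio, Srsf11 and Srsf7, and for Srsf3, the relative of Srsf7 that moved the other way. Each is written 5' to 3' on the strand of the gene. Capitals mark matches to the motifs searched for, on either strand, and where matches touch they form 1 run of capitals. The windows are chr3:158036607-158036856 (minus), chr17:80207306-80207555 (minus) and chr17:29032410-29032659 (plus).
Srsf11: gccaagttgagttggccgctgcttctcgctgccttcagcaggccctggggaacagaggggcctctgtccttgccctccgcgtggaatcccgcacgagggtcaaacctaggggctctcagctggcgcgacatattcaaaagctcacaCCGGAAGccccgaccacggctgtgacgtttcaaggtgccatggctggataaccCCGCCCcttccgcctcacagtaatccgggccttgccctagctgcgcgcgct
Srsf7: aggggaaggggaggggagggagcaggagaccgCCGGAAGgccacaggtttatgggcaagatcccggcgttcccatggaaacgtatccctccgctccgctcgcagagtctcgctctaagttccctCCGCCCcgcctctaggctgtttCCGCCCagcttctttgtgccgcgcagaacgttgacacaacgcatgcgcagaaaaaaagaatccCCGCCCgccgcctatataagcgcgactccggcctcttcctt
Srsf3: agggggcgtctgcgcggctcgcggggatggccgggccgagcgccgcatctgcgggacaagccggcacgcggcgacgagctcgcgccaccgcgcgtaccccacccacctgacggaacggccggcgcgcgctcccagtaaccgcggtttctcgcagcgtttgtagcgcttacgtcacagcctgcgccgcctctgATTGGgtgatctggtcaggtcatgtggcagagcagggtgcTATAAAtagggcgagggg
The RefSeq starts of Srsf3, Srsf11 and Srsf7 lie inside the GENCODE models of these genes, by the fewest bases for Srsf7, so each window overlaps its own gene. The Srsf3 window holds TATAAA, whose first base lies 18 bases before the start, and CCAAT (as ATTGG) 58 bases before it. The Srsf7 and Srsf11 windows hold neither of these exact strings. Only exact matches were searched for, and the Srsf7 window holds tatataag near the RefSeq start, which is close to TATAAA but was not marked. The windows of Srsf7 and Srsf11 both hold CCGGAAG, 218 and 104 bases before the start, and GGGCGG (as CCGCCC), 3 times in Srsf7 and 1 time in Srsf11.

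Across the 10 members, taking the most upstream start of each, CCGGAAG, the core of many ETS factor sites, was found in 4 windows (Srsf4, Srsf5, Srsf7 and Srsf11), against 16.2% of the 8025 windows of tested genes and 6.91% of all 32851 windows. TATAAA was found in 2 windows (Srsf2 and Srsf3), against 5.94% and 12.4%, and CCAAT in 3 (Srsf2, Srsf3 and Srsf10), against 36.5% and 33.8%. GGGCGG was found in 9 windows, all except that of Srsf3, against 60.6% and 32.7%. CACGTG, TGACGTCA and ACTACAA were found in 0 of the 10, against 9.03%, 2.89% and 4.37% of the windows of tested genes. Members on both sides of the control carried CCGGAAG, and TATAAA was shared by Srsf3 and by Srsf2, which hardly moved. The median window of the members was 66.8% G and C with 29.0 CpG pairs, against 60.4% and 17.0 for tested genes.

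Srsf10, Srsf9, Srsf4 and Srsf1 were the other members below the control. Srsf10, a repressor of splicing when its tail is dephosphorylated in heat shock or mitosis, stood at 200.2 CPM without the drug, 174 CPM after 3 h and 144 CPM after 6 h. On the scale of CPM it was lower after 3 h than in the control and lowest after 6 h. Its log2 ratios were -0.20 (-0.25 to -0.16) and -0.47 (-0.53 to -0.42). The 3 h value was 0.036 under median-of-ratios scaling, so the direction at that time depends on the scaling. Srsf9, a member with a short serine-arginine tail, stood at 79.2, 58.2 and 55.7 CPM, with log2 ratios of -0.44 and -0.50 and intervals of -0.52 to -0.37 and -0.59 to -0.42. On the scale of CPM most of its difference was present after 3 h, and the interval between 6 h and 3 h, -0.16 to 0.04, held 0. Over 10 alternatives other than UMIs per cell, its 3 h ratio ran from -0.45 to -0.20 and its 6 h ratio from -0.53 to -0.49. Between the times it ran from -0.28 to -0.05, so that timing depends on the processing.

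On the scale of CPM, Srsf4 and Srsf1 were lowest after 3 h. Srsf4, a member with a pair of RNA recognition motifs and a long tail, stood at 80.5 CPM without the drug, 49.4 CPM after 3 h and 66.6 CPM after 6 h. Its log2 ratio was -0.69 after 3 h (-0.79 to -0.63), the lowest of the family at that time, and -0.27 after 6 h (-0.35 to -0.20). Between 6 h and 3 h it was 0.43 higher (0.33 to 0.54), the largest increase of the family on the scale of CPM, while in UMIs per cell it was at -0.14. Among the shallowest cells of each library that difference was 0.07 in CPM, below the 0.17 of Srsf1. Srsf1, the founding member, which favours proximal 5' splice sites, stood at 119 CPM, 92.1 CPM and 101 CPM. Its log2 ratios were -0.37 (-0.43 to -0.31) and -0.23 (-0.30 to -0.17). Between the times the ratio of Srsf1 ran from -0.09 to 0.14 over 10 alternatives other than UMIs per cell. The order of the times for Srsf1 therefore depends on the processing.

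On the scale of CPM, Srsf2, Srsf5 and Srsf6 differed least from the control. Over 10 alternatives other than UMIs per cell, the 3 h ratio ran from 0.10 to 0.35 for Srsf5 and from 0.05 to 0.31 for Srsf6. That of Srsf10 ran from -0.23 to 0.04 and that of Srsf1 from -0.41 to -0.13, so this ranking depends on the processing. Srsf2, a resident of nuclear speckles that also acts in the release of paused RNA polymerase, stood at 302 CPM, 283 CPM and 294 CPM. Its log2 ratios were -0.09 and -0.04, and the 3 h value was above 0 under median-of-ratios and TMM scaling. Srsf5 stood at 239, 258 and 268 CPM, with log2 ratios of 0.11 (0.08 to 0.15) and 0.17 (0.13 to 0.21). Srsf6 stood at 180.4, 190 and 174 CPM, with log2 ratios of 0.07 and -0.05. Srsf5 and Srsf6 share with Srsf4 the layout of 2 RNA recognition motifs and a long tail, and these 3 members differed among themselves: after 3 h Srsf4 was 1.62-fold lower and Srsf5 and Srsf6 were 1.08-fold and 1.05-fold higher in CPM, though lower in UMIs per cell.

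**Figure D2:**
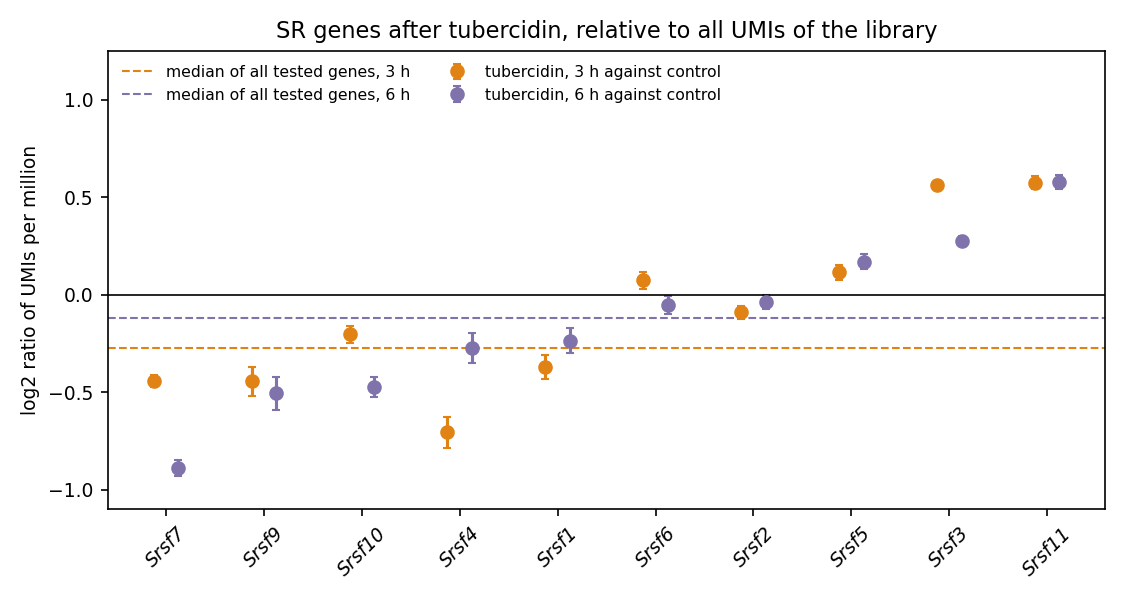
Log2 ratio of CPM, without the added 1, against the control for each SR gene after 3 h (orange) and 6 h (purple). Bars are exact 95% counting intervals, and genes are ordered by the 6 h value. The dashed lines are the medians of all 7884 tested genes for CPM + 1, -0.27 and -0.12. Srsf7 has the lowest 6 h value and Srsf11 and Srsf3 the highest, and in UMIs per cell every point would lie below 0.

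Counted by size, 1 of the 10 members was at least 1.5-fold lower after 3 h (Srsf4) and 1 after 6 h (Srsf7), against 24.5% and 16.9% of all tested genes. No member was at least 1.5-fold higher (0 of 10 after 3 h and 0 of 10 after 6 h), against 3.61% and 7.06%. Srsf11 and Srsf3, at 1.49-fold and 1.47-fold after 3 h, lay just inside that limit and passed it under median-of-ratios and TMM scaling. A 2-fold difference from the control was reached by 0 members in either direction, against 0.888% higher and 5.54% lower after 3 h and 2.33% higher and 4.41% lower after 6 h. From 3 h to 6 h 0 members differed by 1.5-fold, against 8.51% of genes higher and 1.67% lower, and 0 by 2-fold, against 1.64% and 0.165%. Below 0 lay 6 members after 3 h and 7 after 6 h, against 72.6% and 60.3% of tested genes, and from 3 h to 6 h 5 members were lower, against 32.4%.

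The median log2 ratio over the 10 members was -0.15 after 3 h and -0.14 after 6 h, beside medians of -0.27 and -0.12 over all tested genes, and between 6 h and 3 h it was -0.03 beside 0.14. Median-of-ratios and TMM factors moved the 3 h median of all genes by 0.23 and 0.19, and the 3 h median of the members to 0.092 and 0.043, so no direction is given for the family after 3 h. Relative to the median of all genes, Srsf3 and Srsf11 stood 0.83 and 0.84 higher after 3 h and 0.39 and 0.70 higher after 6 h. On the same scale Srsf4 stood 0.42 lower after 3 h (a difference of -0.42), and Srsf7 differed by -0.17 after 3 h and -0.77 after 6 h. The comparisons with the control share the control library.

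The composition of SR transcripts within a library is likewise free of library factors. Srsf3 made up 26.7% of the UMIs of the 10 genes in the control (26.5 to 26.8%, Clopper-Pearson), 36.3% after 3 h (35.9 to 36.6%) and 32.9% after 6 h (32.6 to 33.3%). Srsf7 made up 17.7%, 11.99% and 9.76%, and Srsf11 8.80%, 12.1% and 13.4%. Srsf7 was thus the second most abundant transcript of the family in the control and the fifth after 6 h, where Srsf11, Srsf2 and Srsf5 also lay above it. Srsf6 kept close to 7.03%, 6.81% and 6.92%. Near neighbours in the order of CPM were Srsf4 and Srsf9 in the control (80.5 and 79.2 CPM) and Srsf11 and Srsf7 after 3 h (336 and 334 CPM), whose counting intervals overlapped. UMIs of a 3' assay count captured molecules and are not divided by transcript length, and genes may differ in how well they are captured.

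**Figure D3:**
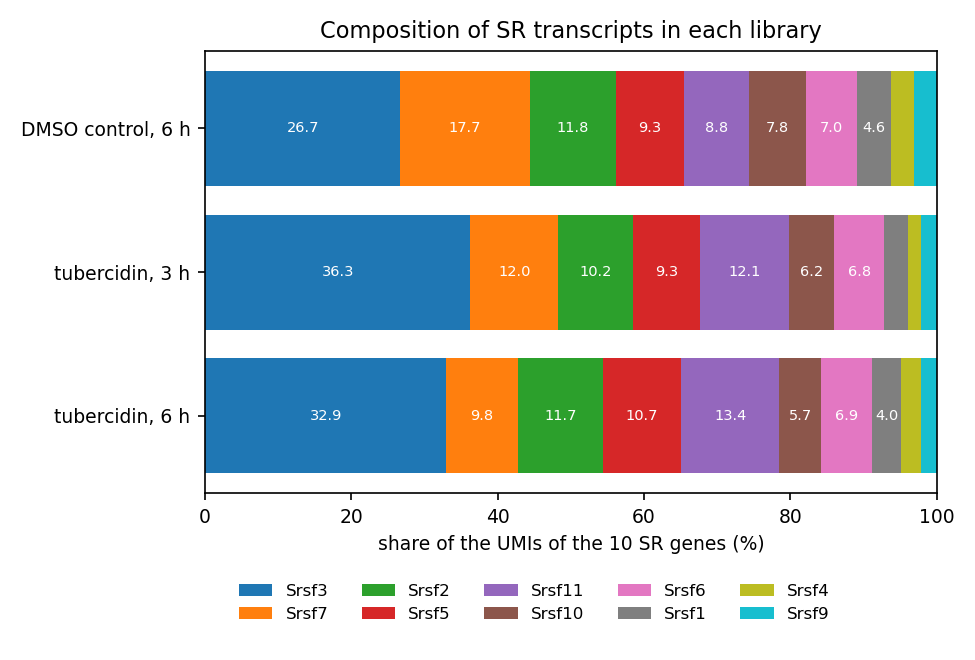
Share of the UMIs of the 10 SR genes, in percent, taken by each gene in each library, as stacked bars that sum to 100. The Srsf3 segment is widest throughout, at 26.7, 36.3 and 32.9%, while the Srsf7 segment narrows from 17.7 to 9.76% and the Srsf11 segment widens from 8.80 to 13.4%.

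Of the 45 ratios between pairs of members, the number that differed at least 2-fold from the control was 6 after 3 h and 5 after 6 h, and from 3 h to 6 h it was 0. At 3 h each of the 6 set Srsf3 or Srsf11 against Srsf4, Srsf7 or Srsf9. At 6 h 3 of the 5 held Srsf7, set against Srsf3, Srsf5 and Srsf11, and the other two set Srsf9 and Srsf10 against Srsf11. The ratio of Srsf7 to Srsf11 changed most after 6 h. It was 2.01 in the control, 0.994 after 3 h and 0.728 after 6 h, a 2.77-fold change after 6 h. The share of 2-fold changes among pairs of all tested genes was not computed, so these counts do not set the family apart. The quartiles of single tested genes were -0.58 and 0.03 after 3 h, and -0.44 and 0.18 after 6 h.

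The shift between Srsf3 and Srsf7 was present in shallow and in deep cells. Called cells of each library were split by their total UMIs into a low, a middle and a high tertile, with median depths of 37199, 48452 and 65438 UMIs in the control, 7734, 11879 and 17331 after 3 h and 5232.5, 8005 and 11322 after 6 h. The ratio of Srsf3 to Srsf7 was 1.46, 1.55 and 1.499 in the control tertiles, 2.94, 3.09 and 3.01 after 3 h, and 3.25, 3.47 and 3.37 after 6 h. Every treated value lay above every control value, and the counting intervals of some 3 h and 6 h tertiles overlapped. Srsf11 stood at 249.9, 226 and 214 CPM in the control tertiles, 372, 330.3 and 325 CPM after 3 h, and 372, 340.3 and 321 CPM after 6 h, so it was a little higher in shallow cells of each library and the treated tertiles lay above all control tertiles. Srsf1 was lower in shallow cells than in deep cells after treatment, at 79.0 against 101 CPM after 3 h and 88.7 against 108 CPM after 6 h. Its control tertiles were at 117 and 123 CPM. Srsf4 differed between tertiles. Its log2 ratio after 3 h was -0.40, -0.88 and -0.71 from the lowest to the highest tertile, and in the lowest one Srsf1 (-0.56) and Srsf7 (-0.55) were lower. The median depth of the lowest control tertile was above that of the highest treated ones, although single cells overlapped in depth.

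To compare cells at 1 depth, cells were thinned at random to 4000 UMIs each, and the 0 control, 122 3 h and 284 6 h cells shallower than that were dropped. A thinned cell held 2.77 ± 1.77 Srsf3 UMIs in the control (SD over 2031 cells), 4.03 ± 2.19 after 3 h (2243 cells) and 3.41 ± 2.01 after 6 h (2642 cells). Srsf7 was at 1.82 ± 1.46, 1.37 ± 1.20 and 1.01 ± 1.04 UMIs. Srsf3 exceeded Srsf7 in 58.2% of thinned control cells, in 82.0% after 3 h and in 81.7% after 6 h, and Srsf7 exceeded Srsf3 in 24.96%, 7.94% and 7.46%. The 10 genes together gave 10.3 ± 3.55, 11.2 ± 3.68 and 10.2 ± 3.42 UMIs per thinned cell. At this depth much of the spread among cells is counting error.

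Barcodes outside the called cells carry mostly free RNA. The 10000 of them ranked from just past 5000 to 15000 in total UMIs were summed for each library. There the ratio of Srsf3 to Srsf7 was 1.81 in the control (1.68 to 1.94), 3.50 after 3 h (3.22 to 3.82) and 3.62 after 6 h (3.19 to 4.11), in the same order as in cells. Srsf11 behaved differently. Outside cells it stood at 187 CPM without the drug, 174 CPM after 3 h and 222 CPM after 6 h, so the higher level seen in cells after 3 h was not seen in free RNA. Its log2 ratio of free RNA to cells was -0.27 (-0.39 to -0.16) in the control, -0.95 (-1.11 to -0.80) after 3 h and -0.60 (-0.77 to -0.44) after 6 h, beside medians over all tested genes of -0.25, -0.40 and -0.36. Srsf1 was the member with values above 0 in each library, at 0.34, 0.11 and 0.22, of which the intervals of the treated libraries held 0. Srsf2 was at 0.17 in the control, -0.11 after 3 h and 0.46 after 6 h, where 98.3% of tested genes had a lower value.

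**Figure D4:**
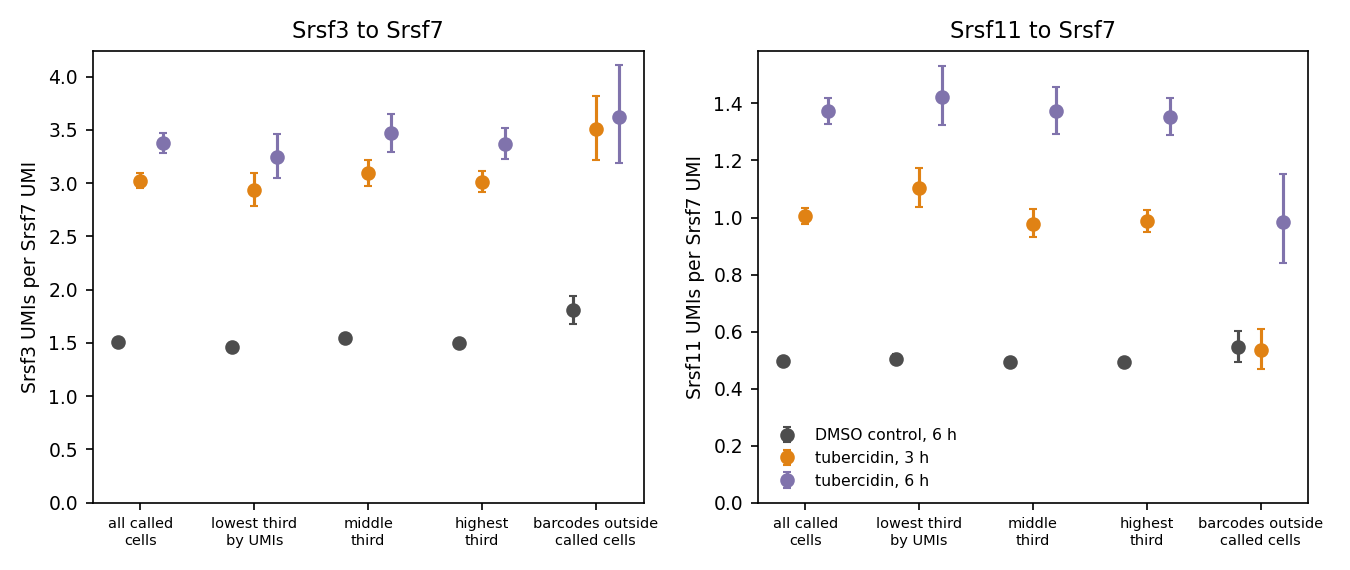
UMIs of Srsf3 (left) and Srsf11 (right) per Srsf7 UMI, with exact 95% counting intervals, in all called cells, in tertiles of cells by total UMIs, and in barcodes outside the called cells. Treated libraries lie above the control at every position, except Srsf11 to Srsf7 outside cells after 3 h, at 0.535 against 0.545 in the control.

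The gene models bear on what these UMIs count. GENCODE M21, on GRCm38, lists 4 to 19 transcripts per member, among them at least 1 transcript subject to nonsense-mediated decay for 9 of the 10 (all but Srsf10) and at least 1 with a retained intron for 8 (all but Srsf9 and Srsf10). Srsf11 has the most retained-intron transcripts, 11 of its 19. A 3' count adds such forms to the coding ones where they share the last exon, so the productive and unproductive forms were not separated. The longest genes were Srsf4 and Srsf11, spanning 28090 and 26167 bases, and after 3 h they lay at opposite ends of the family, at -0.69 and 0.57. Srsf2, the shortest at 3194 bases, lies wholly within Mettl23 on the opposite strand, which was at 21.5, 19.1 and 23.4 CPM. Whether reads of the pair were separated by strand is not known, since the strand setting of the counting is not given in the sources used here. Srsf1 overlaps the antisense gene Gm11508 by 634 bases, and Srsf4 overlaps the antisense gene Gm12992 by 2229 bases, which stood at no more than 3.61 CPM. Mfsd11 overlaps Srsf2 by 655 bases on the opposite strand. On the same strand, Gm43362 overlaps Srsf11 by 2470 bases and A930004J17Rik overlaps Srsf4 by 4610 bases. The identifier of neither was found among the genes listed, so their part in the UMIs of Srsf11 and Srsf4 was not tested. Lrrc40 begins 22 bases from Srsf11 on the opposite strand.

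Lists of genes that work with the SR proteins were compared by the same rule. Among 35 tested SR-related genes, 0 reached 2-fold against the control. Of all tested genes 0.888% were at least 2-fold higher and 5.54% lower after 3 h, and 2.33% and 4.41% after 6 h. At least 1.5-fold lower after 3 h were 4 SR-related genes, against 24.5% of all tested genes. After 6 h 1 SR-related gene was at least 1.5-fold higher, against 7.06%. The median log2 ratio of the SR-related genes was -0.15 after 3 h and 0.04 after 6 h. The extremes after 6 h were Arglu1, a coactivator with an arginine-rich region, at 190, 251 and 312 CPM (0.71), and Rsrp1 at 86.0, 58.4 and 57.4 CPM (-0.57). Among 19 tested kinases, phosphatases and import factors the medians were -0.21 and -0.09, and 1 gene was at least 2-fold higher, at both times, against 0.888% and 2.33% of all tested genes. This was Ppp1r10, which targets protein phosphatase 1 to the nucleus, at 51.7 CPM without the drug, 131 CPM after 3 h and 149 CPM after 6 h (1.32 and 1.51). It was higher under each scaling run except UMIs per cell, where it was at -0.68 and -1.05. The lowest of this list after 6 h was Clk2, at 35.0, 21.1 and 23.1 CPM (-0.70 and -0.58). The other CLK kinases, named after their values were seen, had log2 ratios of -0.64 and -0.49 for Clk1, -0.46 and -0.53 for Clk3 and -0.57 and -0.34 for Clk4, so all 4 lay below the control at both times, and did so under every scaling run. Of all tested genes 72.6% and 60.3% lay below the control. Srpk1 stood at 0.01 and 0.09, and Srpk2 at -0.18 and -0.09, of which the 3 h value of Srpk2 was above 0 under median-of-ratios and TMM scaling. In UMIs per cell the genes named as higher in any of these lists were lower than the control.

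The 26 hnRNP genes, whose proteins often oppose SR proteins on exons, had medians of -0.21 and -0.04. Past 2-fold were 0 of the hnRNP genes, against the 2-fold shares of all tested genes given above. After 3 h 4 hnRNP genes were at least 1.5-fold lower and 1 higher, against 24.5% and 3.61% of all tested genes. After 6 h 2 were lower, against 16.9%. Ptbp1, a repressor of exon inclusion, was highest after 6 h, at 156, 243 and 221 CPM (0.50), and Hnrnpk lowest, at 574, 382 and 359 CPM (-0.68). The 13 genes of nonsense-mediated decay had medians of -0.20 and 0.14, with 0 past 2-fold, against the same 2-fold shares. At least 1.5-fold lower were 2 after 3 h and 1 after 6 h, against the same 24.5% and 16.9%. Upf2 was highest after 6 h (0.51) and Magoh, a subunit of the exon junction complex, lowest (-0.76). Magoh was at 215 CPM without the drug and 223 CPM after 3 h and at 127 CPM after 6 h. The 17 genes of mRNA export had medians of -0.06 and -0.08, and 2 of them were at least 2-fold lower after 6 h, against 4.41% of all tested genes. These were Thoc7 of the THO complex, at 104, 53.5 and 47.2 CPM (-0.95 and -1.13), and Nxt1, the partner of the export receptor Nxf1, at 70.6, 47.1 and 33.7 CPM (-0.57 and -1.04). Nxf1 itself was at 0.22 and 0.18, and the highest of the list after 6 h was Mcm3ap, at 0.40.

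**Figure D5:**
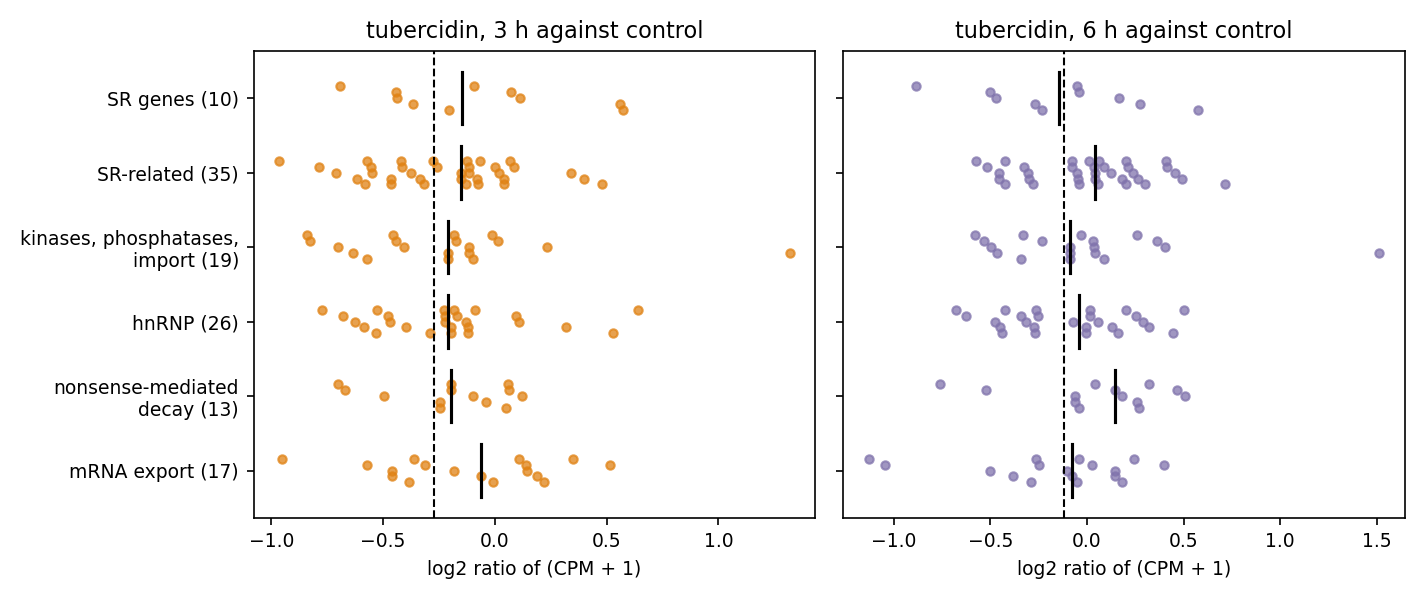
Log2 ratio of CPM + 1 against the control after 3 h (left) and 6 h (right) for the SR genes and 5 lists of related genes, with the number of tested genes in brackets. Points are genes, black bars are list medians and the dashed line is the median of all tested genes (-0.27 and -0.12). Ppp1r10 stands apart at 1.32 and 1.51, and in UMIs per cell it too would lie below 0.

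Genes with patterns most like the extremes of the family were found by the distance between pairs of log2 ratios after 3 h and 6 h, over 3 libraries and among 7606 genes with established names. Among those nearest to Srsf7 were Zfp982 (-0.43 and -0.89) and Rrm2 (-0.42 and -0.90), at distances of 0.017 and 0.028. Nearest to Srsf11 were Pkm (0.59 and 0.56), Krt42 (0.59 and 0.56) and Anxa6 (0.60 and 0.57), at distances of 0.026 to 0.031. Both ratios share the control library.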

How the data were processed

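Polyadenylated RNA of single cells was measured in 3 libraries, 1 per condition. The authors deposited raw UMI counts per gene and barcode with no cell filter, which the file headers credit to Cell Ranger 7.1.0, on mm10, per the submitters' processing notes. The annotation release and the handling of intronic reads are not given in the sources used here.

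To call cells, the 99th percentile of UMIs among the top 3000 barcodes of a library was divided by 10, and barcodes reaching that value were kept if they had 500 or more genes and no more than 20% of UMIs from mitochondrial genes. Doublets were kept, and cells were not clustered. Counts were summed per library, scaled to CPM over the called cells and compared as log2 of CPM + 1. Intervals of a ratio are exact conditional binomial intervals without the pseudocount, and those of levels and shares are Clopper-Pearson. They cover counting error only, and a count of 0 would allow 3 counts, or 0.0286, 0.100 and 0.122 CPM in the control, 3 h and 6 h. The statistics were tested on simulated counts.

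The members, the lists and the rule of naming (all members, list genes past 2-fold against the control, the extremes of each list at 6 h, and the 3 nearest patterns) were chosen with earlier results of these data known. One gene that the rule names is not reported here. Rbm23 was not found by symbol, and 6 list genes were under 10 CPM. Composition, pair ratios and the third promoter were added after values were seen, as were the names of Clk1, Clk3, Clk4, Srpk1, Srpk2, Nxf1 and Gm11508. Scalings used median-of-ratios factors and TMM from edgeR 4.0.16 in R 4.3.3. Other alternatives changed the cells, the pseudocount and the free RNA. Gene models came from GENCODE M21 and promoters from RefSeq, both on GRCm38, the build of mm10, and all 10 members matched in each. The scripts ran under Python 3.11.15 with scipy 1.17.1, pandas 2.3.3 and numpy 2.4.6.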

Additional observations from a re-analysis of the deposited data

Results flagged for a closer look

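Srsf6 lay on opposite sides of the control at the 2 times, beyond counting error. Its log2 ratio was 0.07 at 3 h (0.03 to 0.11) and -0.05 at 6 h (-0.10 to -0.01). In the middle tertile of cells by depth it lay above the control at both times, at 0.04 and 0.03. Both values share the control library, both are small beside the range of the family, and the difference between the times was not tested.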

How the results depend on the processing

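No paired analysis was possible because each condition has 1 library, and for the same reason no replicate could be left out. Over 11 alternatives, 309 of 330 log2 ratios of single members were not counted as turned. Of those 309, 31 at 3 h, 8 at 6 h and 23 between the times were counted as moved rather than the same. Srsf11 between 6 h and 3 h, at 0.01 with a counting interval that held 0, was not counted as turned. It reached -0.22 among the alternatives other than UMIs per cell. Scaling moved the values most. The median of the members at 3 h turned to 0.092 under median-of-ratios and 0.043 under TMM factors, and was -0.10 with free RNA subtracted. Between 6 h and 3 h it was -0.25 under either scaling. In UMIs per cell the medians were -2.16 after 3 h, -2.70 after 6 h and -0.58 between the times, with 10, 10 and 5 members at least 1.5-fold lower. Members at least 1.5-fold lower at 3 h were 0 under median-of-ratios, under TMM and with equal weight for each cell, since Srsf4 then missed the limit. Those at least 1.5-fold higher at 3 h were 2 under either scaling (Srsf3 and Srsf11) and 1 with free RNA subtracted or with equal weight for each cell (Srsf11). At 6 h Srsf11 passed the limit, as 1 member, under median-of-ratios and with free RNA subtracted. Between 6 h and 3 h Srsf7 was 1 member at least 1.5-fold lower under either scaling.

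At 3 h Srsf2 turned to 0.15 (median-of-ratios) and 0.10 (TMM), and Srsf10 to 0.036 (median-of-ratios). Between 6 h and 3 h Srsf1 turned to -0.091 and -0.087, Srsf2 to -0.17 under each and to -0.038 with free RNA subtracted, and Srsf5 to -0.17 under each. In UMIs per cell, Srsf3, Srsf5, Srsf6 and Srsf11 turned to -1.47, -1.90, -1.94 and -1.45 at 3 h, Srsf3, Srsf5 and Srsf11 to -2.33, -2.42 and -2.02 at 6 h, and Srsf1, Srsf2, Srsf4 and Srsf5 to -0.43, -0.52, -0.14 and -0.52 between the times. These scalings multiply a library by 1 factor and leave ratios between members as they were.

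Counts of all tested genes at least 1.5-fold higher and lower were 285 and 1929 after 3 h, 557 and 1336 after 6 h, and 671 and 132 from 3 h to 6 h. At 3 h median-of-ratios gave 708 and 902 (44.0% of them higher, against 12.9%) and TMM 583 and 1070 (35.3%). Between the times they gave 241 and 478 (33.5%, against 83.6%), and 247 and 467 (34.6%). Scaled per cell the counts were 9 and 7848, 8 and 7851, and 51 and 1749. A mean of at least 50 CPM gave 119 and 552, 205 and 339, and 235 and 51, and no filter 846 and 3568, 1978 and 2529, and 1988 and 287. At 2-fold the counts were 70 and 437, 184 and 348, and 129 and 13. Median-of-ratios gave 139 and 166 at 3 h and 57 and 45 between the times, TMM 126 and 202, and 57 and 45, and scaling per cell 6 and 7785, 6 and 7818, and 5 and 173. A mean of 50 CPM gave 22 and 95, 42 and 75, and 23 and 4, and no filter 226 and 855, 679 and 707, and 389 and 33. Between the times 23 genes were 2-fold lower with free RNA subtracted and 20 with a pseudocount of 0.1 CPM.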

Other observations

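Gm11508, antisense to Srsf1 over 634 bases, stood at 15.7 CPM without the drug, 28.8 CPM after 3 h and 43.8 CPM after 6 h, while Srsf1 was at 119, 92.1 and 101 CPM. Under median-of-ratios factors its log2 ratios were 1.07 and 1.43, and in UMIs per cell -1.05 and -1.04. Without knowledge of the strand setting it is not known whether reads of the pair were separated, so the values are uncertain. Srsf12, at a mean of 0.454 CPM, was too low to compare.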
